A study of Rattus norvegicus with 4 samples.

Results

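The DEAD and DEAH box RNA helicases were the rat genes whose symbol starts with Ddx or Dhx followed by a number, together with the RNA sensor genes Rigi and Ifih1. Named probes were found for 45 of these genes (32 Ddx genes, 12 Dhx genes and Ifih1, on 58 probes), of 16579 named genes in all. The array held 45598 distinct probes. The cells were NR8383, a macrophage line obtained by washing out the lungs of a rat. They had been kept for 20 passages, seeded for 48 h in 25 cm2 flasks and exposed to the titanium dioxide material NRCWE001 at 3 cm2 per cm2 for 4 h. RNA of 4 cultures, called biological replicates in the design text, was hybridised to 4 one-colour arrays. The cultures were of 1 line and carried 1 treatment label. The design text also names unexposed cells. They were not analysed here, and the values therefore describe exposed cells and no response to the particles.

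DEAD and DEAH box proteins use ATP to bind, unwind or clamp RNA, and are named after amino acids of a shared ATPase motif. Different members rearrange the spliceosome, assemble ribosomes, export, translate or store mRNA, and act in mitochondria. RIG-I and MDA5, the products of Rigi and Ifih1, recognise foreign double-stranded RNA in the cytoplasm and signal through the mitochondrial adaptor MAVS, while LGP2, the product of Dhx58, modulates both. In macrophages this pathway leads to type I interferon, which in turn induces the sensors.

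The promoters of 4 members are shown because the same letters stood before detected and undetected genes. Complete RefSeq promoter windows on GRCr8, without ambiguous bases, were found for 40 of the 45 genes. Each window below is the 250 bases before the gene start, on the gene's strand. Capitals mark CCGGAAGT, the letters of an ETS site, the core of the interferon response element (GAAA, any 2 bases, GAAA) and CCAAT, each searched on both strands.
Ifih1 (chr3:67683969-67684218, minus strand): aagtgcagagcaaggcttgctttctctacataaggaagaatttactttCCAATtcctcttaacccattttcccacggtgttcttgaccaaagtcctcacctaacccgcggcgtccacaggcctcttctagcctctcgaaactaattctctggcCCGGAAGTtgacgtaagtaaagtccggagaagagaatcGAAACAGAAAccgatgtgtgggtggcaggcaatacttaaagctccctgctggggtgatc
Ddx49 (chr16:19159103-19159352, plus strand): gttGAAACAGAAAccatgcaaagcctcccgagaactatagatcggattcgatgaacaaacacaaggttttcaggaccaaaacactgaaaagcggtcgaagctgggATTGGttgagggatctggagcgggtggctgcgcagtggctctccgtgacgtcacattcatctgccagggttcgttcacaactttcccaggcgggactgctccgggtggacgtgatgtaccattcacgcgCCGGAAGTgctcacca
Ddx27 (chr3:176162970-176163219, plus strand): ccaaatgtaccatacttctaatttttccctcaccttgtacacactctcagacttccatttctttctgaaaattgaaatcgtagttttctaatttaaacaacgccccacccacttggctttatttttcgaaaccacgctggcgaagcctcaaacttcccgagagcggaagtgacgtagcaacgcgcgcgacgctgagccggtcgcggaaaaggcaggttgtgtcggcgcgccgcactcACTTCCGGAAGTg
Ddx50 (chr20:31133653-31133902, minus strand): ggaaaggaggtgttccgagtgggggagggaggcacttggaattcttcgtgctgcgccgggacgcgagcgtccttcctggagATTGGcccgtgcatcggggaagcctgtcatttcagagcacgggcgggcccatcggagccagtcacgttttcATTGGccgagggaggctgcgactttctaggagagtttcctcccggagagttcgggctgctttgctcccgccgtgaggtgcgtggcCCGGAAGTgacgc

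All 4 windows held CCGGAAGT, since they were picked to share letters. Ddx49 and Ddx27 were detected on all 4 arrays, whereas Ifih1 and Ddx50 were detected on none. In Ddx27 a match on each strand overlapped the other, and the forward match ended 2 bases before the gene start. The interferon core GAAACAGAAA ended 50 bases before the start of Ifih1 and 238 bases before that of Ddx49. The 4 windows shown end at the gene start, as did 69.3% of all RefSeq promoter windows. The shares and CG counts that follow were not limited to such windows. CCGGAAGT was present in 6 of the 40 members' windows (15%) and in 3.29% of 27456 RefSeq promoters. It was present in 4 of the 32 members detected on all 4 arrays (12.5%) and 2 of the other 8 (25%). The interferon core was present in 2 members (5%) and 3.29% of all. CACGTG, an E-box, stood in 7 members (17.5%, against 5.79% of all), CCAAT in 19 (47.5%, against 34.3%) and TATAAA in none (against 13.1%). The members' windows had a median of 18.5 CG pairs, against 6 in all promoters. It was 20 in the 32 members detected on all 4 arrays and 15.5 in the other 8. Such matches describe letters and not bound sites. Dhx58 and 4 other members had no complete window without ambiguous bases.

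Most of the family was transcribed in these cells. A probe was called detected where the scanner software flagged its signal as well above background, and 1 such probe sufficed for a gene. By this measure 36 of 45 members (80%) were detected on all 4 arrays, 1 on a single array and 8 on none, beside 45.7% of all named genes detected on all 4. By name, 28 of 32 Ddx genes (87.5%) and 8 of 12 Dhx genes (66.7%) were detected on all arrays. These shares describe the probes of 1 array design and were not tested against each other. Since 24489 probes had no name here, a member without a named probe was not analysed.

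**Figure D1:**
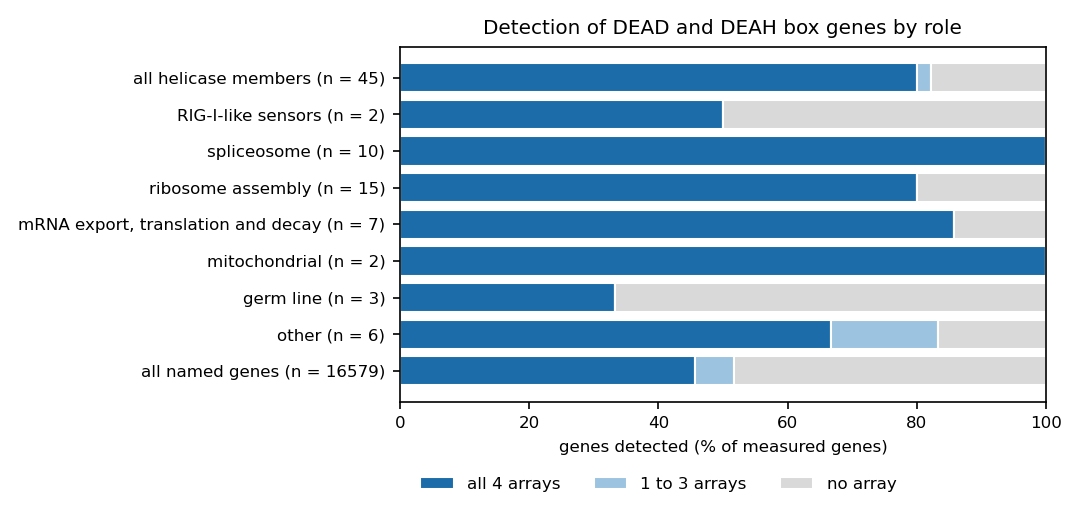
Share of measured genes (x axis, %) detected on all 4 arrays, on 1 to 3 arrays or on none, for the helicase members, each role group and all named genes. All 10 spliceosome members were detected on all arrays, 12 of 15 ribosome assembly members and 1 of 3 germ line members, beside 45.7% of all named genes.

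No spot was saturated, 33.6 to 36.6% of probes were well above background, and Pearson's r over 7570 detected genes, which are not independent replicates, was 0.992 to 0.997 between pairs of arrays. Replicate 1 stood apart by position: of genes with a spot in columns 1 to 72, 161 of 3586 lay over 0.5 (log2) below their mean there, against 19 of 3984 beyond. None of the 36 detected members did, but only 15 of them had a spot in those columns, so this does not show that they escaped the effect. On replicate 1 Ddx55 (column 7) lay 0.48 above its mean and Ddx31 (column 17) 0.33 below. Beyond column 72, Ddx17 lay 0.51 above its mean. Levels are log2 processed signals relative to the 75th percentile of the probes detected on all arrays, which was 1159 to 1726 intensity units. Of 6 macrophage markers, 5 (Cd68, Csf1r, Lyz2, Itgam and Mrc1) were detected on all arrays and Marco on none. Markers of lung epithelium (0 of 4), lymphocytes (0 of 3, with Cd3d on 3 arrays) and granulocytes (0 of 1) were not detected on all arrays. Of the vessel and fibroblast markers, Pecam1 and Cdh5 were detected and Col1a1 and Pdgfra were not. A level belongs to the brightest probe of a gene, and levels of different probes were not compared with each other.

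Of the cytoplasmic RNA sensors, Dhx58 was detected and Ifih1 was not. The background-subtracted signal of Dhx58, the regulator LGP2, was 437, 307, 381 and 329 intensity units on replicates 1 to 4. The median local background at its spot was 36.5 to 38 units. Its level was -1.72, -1.92, -2.18 and -2.11 on the log2 scale (mean -1.98 ± 0.21, SD, n = 4), highest on replicate 1 and lowest on replicate 3. The signal of Ifih1, which encodes MDA5, was 3.40, 3.46, 9.78 and 3.42 units. All 4 values lay under the lowest signal of any probe called detected on the same array, which was 13.5 to 16.6 units. Ifih1 had 1 probe with 1 spot, and whether that probe can detect its transcript was not tested. Rigi itself and Ddx60, a proposed cofactor of RIG-I, were not analysed here.

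The partners of this sensing pathway were measured beside it. Of 13 measured partners 9 (69.2%) were detected on all 4 arrays, beside 45.7% of all named genes. The adaptor gene Mavs lay at -0.76 ± 0.08 (SD, n = 4), the ubiquitin ligase gene Trim25 at 0.14 ± 0.09 and Rnf135, another ligase acting on RIG-I, at -3.57 ± 0.16. Those flagged well above background on no array were the kinase gene Tbk1, the double-stranded RNA kinase gene Eif2ak2 and Tlr3, the endosomal RNA receptor. Whether their probes can detect the transcripts was not tested. The editing enzyme gene Adar was detected on 3 arrays.

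All 10 measured spliceosome helicases were detected on all 4 arrays, beside 45.7% of all named genes. Ddx46 and Ddx23, the relatives of yeast Prp5 and Prp28, act when the snRNPs first assemble on an intron, and Dhx16, the relative of Prp2, acts just before the first catalytic step. Ddx46 lay at -1.52, -1.55, -1.20 and -1.53 on replicates 1 to 4 (mean -1.45 ± 0.17), so replicate 3 alone stood above 3 nearly equal values. Ddx23 lay at 1.92, 1.92, 1.83 and 1.95 (mean 1.90 ± 0.05), the smallest SD of all detected members on this scale. With the 75th percentile of all probes as the reference its SD was 0.14 and that of Ddx5 was smallest at 0.08, and with normexp background correction Ddx49 was smallest at 0.05. Dhx16 lay at -1.50, -1.05, -1.24 and -0.94 (mean -1.18 ± 0.24), lowest on replicate 1 and highest on replicate 4. With normexp its SD rose to 0.53 (limma variance test, adjusted p = 0.0635, and 0.734 to 0.995 under the other alternatives). This was the lowest adjusted p of any member in any setting run. However, normexp starts from median spot signals and not from the detrended ones. The spot of the brightest Dhx16 probe lay in column 10, within the columns where replicate 1 stood apart. With normexp the SD also rose for Ddx39a in column 8 (0.06 to 0.24) but fell for Ddx55 in column 7 (0.35 to 0.10).

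On the scale used, the largest SD of the spliceosome members belonged to Ddx17, a paralogue of Ddx5 that also acts as a transcription coactivator. Its levels were -4.92, -5.59, -5.45 and -5.76 (mean -5.43 ± 0.36), highest on replicate 1. Without replicate 1 its SD was 0.15. The other 6 members were Dhx15, the relative of Prp43 that takes the spliceosome apart, Ddx5, Ddx42, Ddx41, Dhx35 and Ddx39b, whose product loads export factors on mRNA. Dhx8 and Dhx38, relatives of Prp22 and Prp16, were not analysed here.

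Ddx5 was printed on 10 spots per array and shows the error within an array. The SD over its 10 spots was 0.27 on replicate 1 but 0.05, 0.07 and 0.06 on replicates 2 to 4. On replicate 1 the 4 spots in columns 1 to 72 lay at 0.97 ± 0.24 (SD over spots) and the 6 spots beyond lay at 1.39 ± 0.10. On the other arrays these parts differed by little, such as 1.09 and 1.07 on replicate 2. The mean over spots lay at 1.22, 1.08, 1.33 and 1.21 on replicates 1 to 4, an SD of 0.10 between arrays. Most members had a single spot, and 15 of the 36 detected members had one in columns 1 to 72, Dhx58 and Dhx16 among them. The median SD of those 15 was 0.17, as was that of the 21 beyond column 72, whereas over all detected genes it was 0.16 and 0.14.

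Helicases of ribosome assembly, which remodel pre-ribosomal RNA in the nucleolus, were detected on all arrays in 12 of 15 cases. The share over all named genes was 45.7%. Ddx10, needed for the small subunit, lay at -5.73, -5.69, -5.02 and -5.52 (mean -5.49 ± 0.33), highest on replicate 3. Ddx18, the relative of yeast Has1, lay at -4.02, -4.19, -4.23 and -4.62 (mean -4.27 ± 0.26), lowest on replicate 4. Ddx21, which couples transcription by RNA polymerase I with rRNA processing, lay at -1.11, -1.12, -0.81 and -1.05 (mean -1.02 ± 0.14).

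Ddx52, the relative of yeast Rok1, had the largest SD of all detected members on this scale. It lay at -4.08, -4.13, -3.29 and -3.87 (mean -3.84 ± 0.38), a range of 1.79-fold, and its SD was 0.14 without replicate 3. With normexp its SD was also 0.14 and Dhx16 had the largest, while Ddx17 had the largest with the 75th percentile of all probes (0.36, against 0.32 for Ddx52). Ddx55, the relative of yeast Spb4, which acts on the large subunit, had the smallest p-value of the members on this scale. Named for that after its values were seen, it lay at -1.71, -2.43, -2.15 and -2.46 (mean -2.18 ± 0.35, limma prior variance, unadjusted p = 0.0464, adjusted p = 0.923). Its single spot lay in column 7, and its SD was 0.17 without replicate 1 and 0.10 with normexp (limma adjusted p = 0.991, with 0.499 to 0.995 over all alternatives). At the other end, Ddx24 lay at 0.30 ± 0.08 and Ddx54 at 1.81 ± 0.09 (n = 4). Ddx50, Dhx33 and Dhx37 were detected on no array, and Ddx51 was not analysed here. Each of these undetected genes had 1 probe with 1 spot, and whether that probe can detect its transcript was not tested. Ddx50 is the close paralogue of Ddx21, which was detected by all 3 of its probes.

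Among helicases of mRNA export, translation and decay 6 of 7 were detected on all arrays, beside 45.7% of all named genes. Ddx6, a translational repressor of processing bodies, lay at -1.32, -1.59, -1.18 and -1.56 (mean -1.41 ± 0.20), the largest SD of this group on the scale used. Ddx19a and Ddx19b release export factors from mRNA at the nuclear pore. Ddx19a lay at -1.27, -0.96, -0.99 and -0.83 (mean -1.01 ± 0.19), and Ddx19b at -3.29, -3.23, -2.96 and -3.02 (mean -3.12 ± 0.16). Both were lowest on replicate 1. The pair is close in sequence, so their probes may not tell them apart, which was not tested. Ddx39a, the paralogue of Ddx39b in mRNA export, lay at 0.80, 0.80, 0.68 and 0.78 (mean 0.76 ± 0.06), with replicate 3 below the rest. Ddx1, which acts in tRNA ligation, and Dhx34, a factor of nonsense-mediated decay, had SDs of 0.17 and 0.11. Dhx36, which unfolds G-quadruplexes, was not well above background with any of its 3 probes, and Ddx3x and Dhx29 were not analysed here.

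Both mitochondrial members were detected. Ddx28, which takes part in the assembly of the mitochondrial large subunit, lay at -4.12, -3.98, -3.87 and -3.95 (mean -3.98 ± 0.10). Dhx30, a factor of mitochondrial RNA granules, lay at 1.42, 1.09, 1.02 and 1.22 (mean 1.19 ± 0.17). Replicate 1 was thus the lowest for Ddx28 and the highest for Dhx30.

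Of the helicases best known from the germ line, 1 of 3 was detected on all arrays, beside 45.7% of all named genes. Ddx25, a testis helicase, lay at -3.81, -4.31, -4.11 and -4.38 (mean -4.15 ± 0.26), over signals of 58.3 to 103 units. Ddx4, the vasa gene of germ cells, had signals of 5.60, 3.68, 4.17 and 4.14 units and was detected on no array. Ddx3y, on the Y chromosome, was not detected with either of its probes, whose signals were 3.32, 3.34, 3.48 and 4.87 units and 3.21, 3.44, 3.38 and 3.38 units.

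Of the 6 remaining members, Ddx20, Ddx59, Dhx32 and Dhx57 were detected on all arrays. Ddx20, the Gemin3 subunit of the SMN complex that builds snRNPs, lay at -2.22, -2.59, -2.28 and -2.59 (mean -2.42 ± 0.20). Dhx32 lay at -3.38, -3.45, -3.33 and -3.24 (mean -3.35 ± 0.09), and Dhx57 at -6.05, -5.62, -6.18 and -5.69 (mean -5.88 ± 0.27), the largest SD of these on the scale used. Dhx40 was the member detected on a single array. Its signal was 9.08, 3.39, 33.2 and 10.9 units on replicates 1 to 4, and it passed the detection flag on replicate 3. The gene listed as Ddx3, a relative of Ddx3y, was detected on none, and Dhx9 was not analysed here.

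No member varied between the cultures by more than genes of like level at an adjusted p under 0.05. Each gene's variance over the 4 arrays was set against limma's prior variance for its level, and 0 of 36 members passed, beside 0% of all 7570 tested genes. In simulated data this test called 0% of genes with an SD raised 3 times and 24% at 6 times, so the count says little about the members. At an unadjusted p under 0.05 there was 1 member (2.78%), Ddx55, beside 5.32% of all. In 2 members (5.56%), Ddx46 and Ddx39a, 1 array stood apart from the other 3 by Dixon's ratio of gap to range, beside 5.34% of all. The members' SDs ran from 0.05 to 0.38 with a median of 0.17, and the median over all tested genes was 0.15. As each culture had its own array, cultures and arrays cannot be told apart in this spread.

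**Figure D2:**
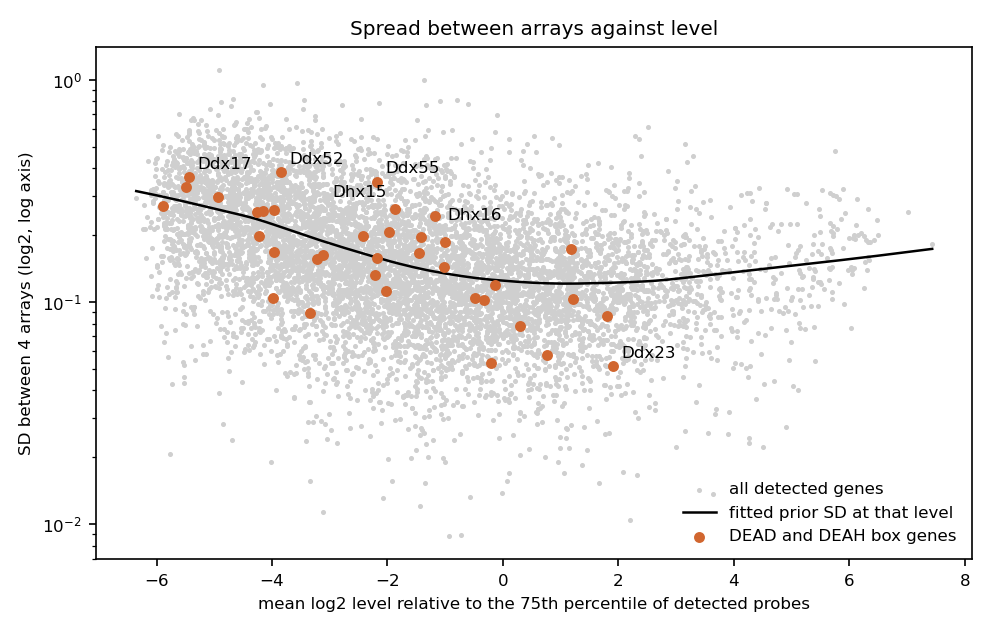
SD between the 4 arrays (y axis, log2 units on a log axis) against mean log2 level (x axis) for 7570 detected genes in grey, with the fitted prior SD as a line and the 36 detected members in orange. Members lie on both sides of the line, from Ddx23 at an SD of 0.05 to Ddx52 at 0.38 on the scale used.

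The members did not all deviate on the same array. On replicate 2 their median deviation was -0.08 and 21 of 36 lay below their own mean, beside 49.4% of all detected genes. The median deviation of the members was 0.01 on replicate 1, 0.03 on replicate 3 and -0.01 on replicate 4, with 17, 13 and 18 of 36 members below their mean, beside 52.2%, 48.8% and 50.6% of all genes. On replicate 2 the members' median was 0.08 below that of all genes. Scales that shift all genes of an array by 1 value cannot change this difference. With quantile normalization the members' median was 0.06 below that of all genes, and with normexp 0.02 below. It was 0.05 below with the mean over detected probes and 0.07 below for genes beyond column 72. On replicate 3 it was 0.03 above that of all genes, but 0.01 below it after quantile normalization. The sign of the members' own median also depends on the scale: on replicate 3 it was -0.10 with the 75th percentile of all probes and -0.04 with normexp background correction, and on replicate 2 it was 0.02 with normexp.

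**Figure D3:**
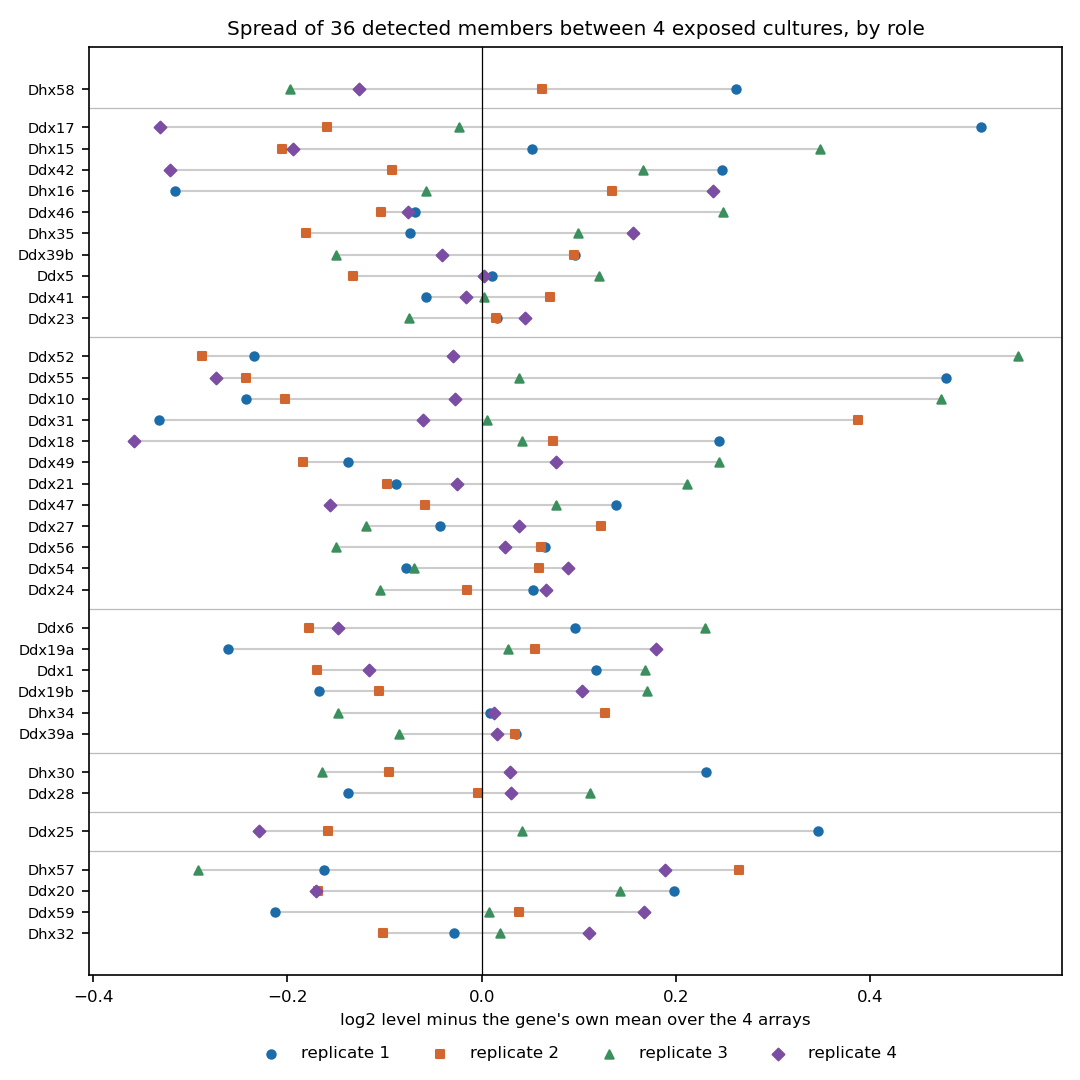
Deviation of each of the 36 detected members from its own mean over the 4 arrays (x axis, log2), with 1 row per gene and 1 symbol per replicate, grouped by role in the order of the text and sorted by SD. Ddx52 and Ddx10 reach farthest to the right on replicate 3, and Ddx17, Ddx55 and Ddx25 on replicate 1.

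Members with several probes show how far 1 gene's deviations repeat. Ddx6 had 4 probes, of which 3 were detected on all arrays. These 3 were lowest or near lowest on replicate 2 (-0.18, -0.18 and -0.10) and highest on replicate 3 (0.23, 0.23 and 0.18), while the fourth, detected on 1 array, stayed within 0.08 of its mean. Both Ddx46 probes were highest on replicate 3 (0.25 and 0.14), but the dimmer one also lay above its mean on replicate 2 (0.05). Of the Dhx15 probes, both were highest on replicate 3 (0.35 and 0.19), but on replicate 2 they lay at -0.21 and 0.06. The 3 probes of Ddx21 disagreed on replicate 1, at -0.09, 0.50 and -0.30, and each of them had a spot in columns 1 to 72. Both Dhx16 probes were lowest on replicate 1 (-0.32 and -1.74), each with a spot in columns 1 to 72. The dimmer probe was detected on 2 arrays, replicates 3 and 4. Its -1.74 on replicate 1 therefore rests on an undetected signal of 3.96 units.

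**Figure D4:**
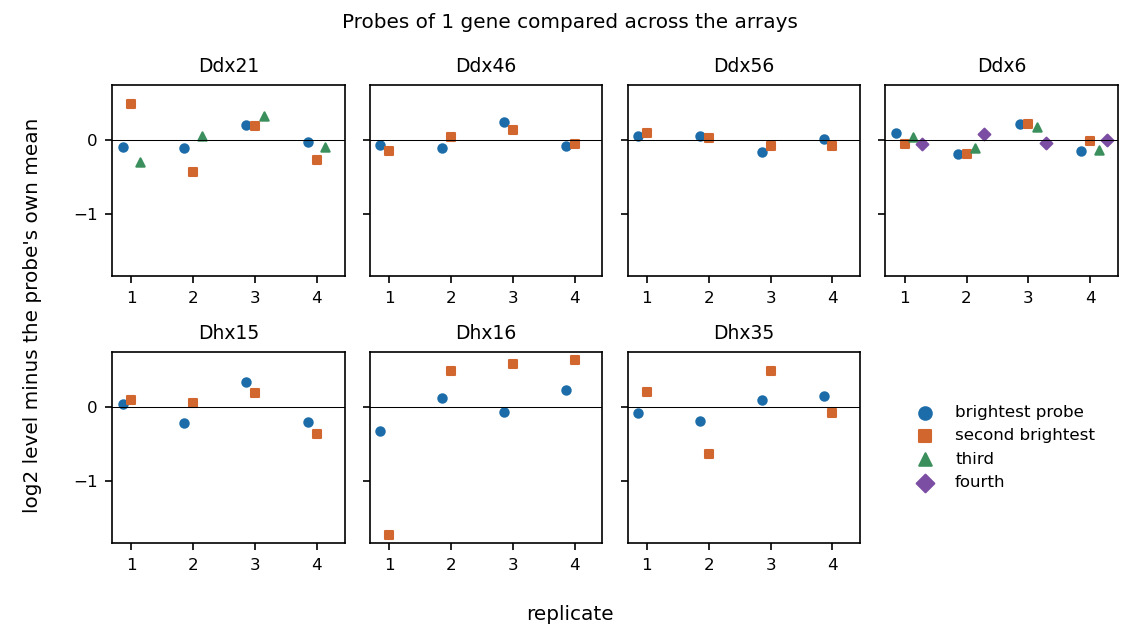
Deviation of each probe from its own mean (y axis, log2) on replicates 1 to 4 (x axis) for the 7 members with more than 1 detected probe, all on 1 scale. The 3 brightest Ddx6 probes are all highest on replicate 3 (0.23, 0.23 and 0.18), whereas those of Ddx21 lie apart on replicate 1.

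Helicases with other names and cofactors of the family were measured too, beside the 45.7% of all named genes that were detected on all arrays. Of 13 RNA helicases measured outside the rule, 11 were detected on all arrays (84.6%). They include the translation initiation helicase genes Eif4a1 (-0.61 ± 0.33, SD, n = 4) and Eif4a2 (-2.52 ± 0.38) and Eif4a3 of the exon junction complex (2.82 ± 0.11). G-patch proteins switch on DEAH helicases, and 9 of 10 measured ones (90%) were detected on all arrays. The Dhx15 activator gene Tfip11 lay at -2.18 ± 0.07, Pinx1 at -3.95 ± 0.37 and Gpkow at -4.86 ± 0.27. Of 8 measured partners of Ddx6 in mRNA decay 5 (62.5%) were detected on all arrays, with Lsm14a at -4.28 ± 0.24 and Edc4 at -0.27 ± 0.20, while Dcp1a was detected on 2. No gene of these lists passed the limma variance test after adjustment. At an unadjusted p under 0.05 there were 2 of the 11 helicases (Eif4a1 and Eif4a2), 1 of the 9 sensing partners (Irf7), 2 of the 9 G-patch genes (Gpatch4 and Rbm17) and 0 of the 5 Ddx6 partners, beside 5.32% of all 7570 genes.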

How the data were processed

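RNA of 4 NR8383 cultures with 1 treatment label was measured, 1 array each, and groups and replicate numbers came from the sample titles. The deposited intensity values are spot signals processed by the authors with Agilent Feature Extraction 11.0.1.1, per the file headers, background-subtracted and detrended but not scaled between arrays. The other deposited flags mark spots that are well above background, saturated or outlying, per the file headers. No spike-in or depth applies, and the number of arrays limits the precision.

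Outlying spots (634 to 669 per array) were left out and spots of a probe averaged on the log2 scale. Levels are relative to the 75th percentile over probes detected on all arrays, since 33.6 to 36.6% of the probes were detected. Probes were named through unversioned accessions by the RefSeq table of GRCr8 (21109 of 45598 probes). The array grid is annotated on another build, so no probe coordinates are given. A probe was detected where over 0.5 of its spots carried the flag for signal well above background. The brightest probe gave a gene's level. Probe sequences were not used here, and RefSeq lists pseudogenes of Ddx18 (2), Ddx21 (9), Ddx41 (1), Ddx5 (3), Ddx50 (1) and Ddx6 (2), so these probes are uncertain.

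Variances (3 degrees of freedom) were tested with limma 3.58.1 in R 4.3.3 against a robust prior with a trend on level (6.23 prior degrees of freedom), upper tail of F, Benjamini-Hochberg over 7570 genes. Tested on simulated data of 7570 genes, it gave an unadjusted p under 0.05 for 3.83% of unchanged genes, 40% of those with an SD raised 2 times and 100% at 6 times, and after adjustment it called 0% at 3 times and 24% at 6 times, so its reach was small. Genes were named by role group: the sensors, the first 3 measured members, the member with the largest SD, and those that 1 array set apart or that 1 to 3 arrays detected. Members and lists were chosen with earlier results of these data known.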

Additional observations from a re-analysis of the deposited data

Results flagged for a closer look

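With the brightest probes of Ddx46 and Ddx39a 1 array stood apart from the other 3. Dixon's ratio of the gap to the range, set against its critical value for 4 samples, was 0.899 for Ddx46, where replicate 3 was high, and 0.835 for Ddx39a, where replicate 3 was low. These are 2 of 36 tested members (5.56%), beside 5.34% of all 7570 genes, and chance alone gives about 1 in 20. Without replicate 3 the SD was 0.02 for Ddx46 and 0.01 for Ddx39a, and the whole range of Ddx39a was 1.09-fold. The single spot of Ddx39a lay in column 8. With normexp the SD over the 4 arrays was 0.24 for Ddx39a, against 0.06 on the scale used, and 0.16 for Ddx46, against 0.17. The dimmer Ddx46 probe, detected on all 4 arrays, lay at -4.94, -4.74, -4.65 and -4.83 on replicates 1 to 4. It was highest on replicate 3 too, but without such a gap.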

How the results depend on the processing

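The count of members detected on all 4 arrays was 36 in each setting tried except 37 with the more lenient flag for signal above background and 37 when 1 array sufficed, where the share of all genes rose to 55.3% and 51.8%. Leaving out each replicate in turn could not change the 36, since 1 further member was detected on a single array and 8 on none. Of the members varying between arrays more than genes of like level there were 0 under each of the alternatives run, although over all genes the limma test called 84 with the 75th percentile of all probes as the scale, 27 with that of all spots, 34 with the median of detected probes, 40 with normexp, 1 beyond column 72 and 1 without replicate 1. The member with the largest or smallest SD changed with the scale and with the replicate left out. The median SD of the members was 0.14 to 0.18 over the alternatives run. That median SD of members between arrays was above the one over all genes on the scale used (0.17 against 0.15), but not with the 75th percentile of all spots (0.1595 against 0.1603), the median of detected probes or normexp. The member levels depend on the scale. Their median over the 36 members was -2.07, and became 2.28 with the 75th percentile of all probes, -0.50 with that of all spots (a scale chosen after seeing the data), 0.22 with the median of detected probes, -1.93 with normexp on median spot signals and -2.56 with the mean over detected probes. These are shifts of the reference, the signal or the probes averaged. It was -2.08 to -1.98 when each replicate was left out. No paired analysis was possible because there was 1 group.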
